A study of Mus musculus with 56 samples.

Results

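Oncofetal genes are active in the liver before birth, are silent or nearly so in the adult liver, and come back in many liver tumours. The 9 examined here were Afp, Gpc3, Lin28b, Igf2bp1, Igf2bp2, Igf2bp3, Hmga2, Sox4 and Sall4. They were taken by symbol from the RNA-seq table of the series, and all 9 were among its 21888 gene symbols. Only 3 of them (Afp, Gpc3 and Sox4) had a mean of at least 1 FPKM (fragments scaled by transcript length and library size) over the 14 livers and were tested with the 11354 genes above that level. The other 6 lay under it and are given as values.

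All livers carried the strain background 129Sv/J, and 1 library is 1 mouse. Of the 14 RNA-seq livers, 11 came from mice with loxP sites around miR-122, the most abundant microRNA of hepatocytes, and 3 from miR-122 knockout mice (replicates A, B and C). Of the floxed mice, 3 were uninjected (day 0) and 3 each were taken 21 and 45 days after a tail vein dose of rAAV8-Ef1a-Cre, an adeno-associated virus vector that expresses Cre and thereby cuts out miR-122. A single mouse was taken at day 100 and another at day 200, and these were joined as 1 group in the tests. The Ef1a promoter is not restricted to hepatocytes, and neither floxed mice given a vector without Cre nor wild-type littermates of the knockout were analysed here. The floxed mice were injected as adults, and exact ages and sex are not given in the sources used here. Cre, the vector, the time since injection and the loss of miR-122 therefore cannot be told apart in the floxed mice, and strain history and lifelong loss cannot be told apart in the knockout. The small RNA libraries of the same series gave a check of the excision. miR-122 made up 59.2% to 73.3% of microRNA reads at day 0, 8.22% to 13.2% at day 21, 0.383% to 1.23% at day 45, 4.46% at day 100 and 19.1% at day 200. No small RNA library of the knockout mice was analysed here.

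The members act at different points. Afp encodes alpha-fetoprotein, the main plasma protein of the fetus and a serum marker of hepatocellular carcinoma, and its gene lies beside that of albumin. Gpc3 encodes glypican 3, a heparan sulphate proteoglycan of the cell surface that binds growth factors. Sox4 is a transcription factor of the SoxC group that is used by progenitor cells and is known to act in bile duct formation. Lin28b binds the precursors of let-7 microRNAs and blocks their maturation, while Hmga2, a chromatin protein, and the Igf2bp genes, which encode RNA-binding proteins that hold and stabilise Igf2 and other transcripts, are known let-7 targets. Sall4 is a zinc finger factor of embryonic stem cells and fetal liver.

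The let-7 family is known to link Lin28b, Hmga2 and the Igf2bp genes as regulator and targets, so its sequences are shown first. The mature 5p strands below were taken from RefSeq (build GRCm38.p6). Capitals mark the seed, bases 2 to 8, and all 9 strands found, with mmu-miR-98-5p included, share it.
mmu-let-7a-5p: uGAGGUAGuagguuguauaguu
mmu-let-7b-5p: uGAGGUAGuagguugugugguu
mmu-let-7c-5p: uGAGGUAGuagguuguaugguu
mmu-let-7f-5p: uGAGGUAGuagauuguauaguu
mmu-let-7g-5p: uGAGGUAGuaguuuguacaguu
mmu-miR-98-5p: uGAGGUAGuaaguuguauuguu

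The 8 letters CTACCTCA, the complement of that seed followed by an A, were searched on the transcript strand of the longest annotated 3′ UTR of each gene (GENCODE, mm9). They occurred in 6 of the 9 members, namely Lin28b, Igf2bp1, Igf2bp2, Igf2bp3, Hmga2 and Sall4, and 3 times in Igf2bp1. Of 19915 genes with a 3′ UTR, 3.02% held the letters, and of the 5657 with at least 1700 bases of 3′ UTR, 6.52% did. The 3 members that passed the expression filter, Afp, Gpc3 and Sox4, had none. Each line gives 30 bases that end at the first such match in a member, with the match in capitals. A match is a description of the sequence and not a measured site.
Hmga2, chr10:119801280-119801309, minus strand: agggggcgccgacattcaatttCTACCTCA
Lin28b, chr10:45100828-45100857, minus strand: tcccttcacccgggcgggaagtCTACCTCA
Igf2bp1, chr11:95823092-95823121, minus strand: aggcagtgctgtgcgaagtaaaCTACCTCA
Igf2bp2, chr16:22059546-22059575, minus strand: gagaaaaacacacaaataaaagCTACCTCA
Igf2bp3, chr6:49036786-49036815, minus strand: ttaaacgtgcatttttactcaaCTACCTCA
Sall4, chr2:168574440-168574469, minus strand: ggatgtgagggctttaatttatCTACCTCA

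Some properties of the libraries bear on the values below. Low values lie on steps that give a rough depth of 35400000 to 54500000 fragments in the floxed livers and 24100000 to 29000000 in the knockout. Albumin is listed at 0 in all 14 libraries although Apoa1, Ttr and Cps1 were at 350.2 FPKM or more in each, so a 0 in this table can be a failed estimate and is given only as listed. The knockout mouse C stood apart from the other two knockout livers, with 3183 of 11354 genes more than 1 on the log2 scale from mouse A and 2347 from mouse B, against 102 between A and B and 142 to 454 between any 2 floxed livers of a group. The median of all genes was 0.20 higher on the log2 scale at day 45 than at day 0 and 0.31 higher at days 100 and 200. Centring each library on its median log2 ratio lowered Afp from 2.41 to 2.17 and Sox4 from 1.84 to 1.61 at day 45 and ended no call of a member.

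**Figure D1:**
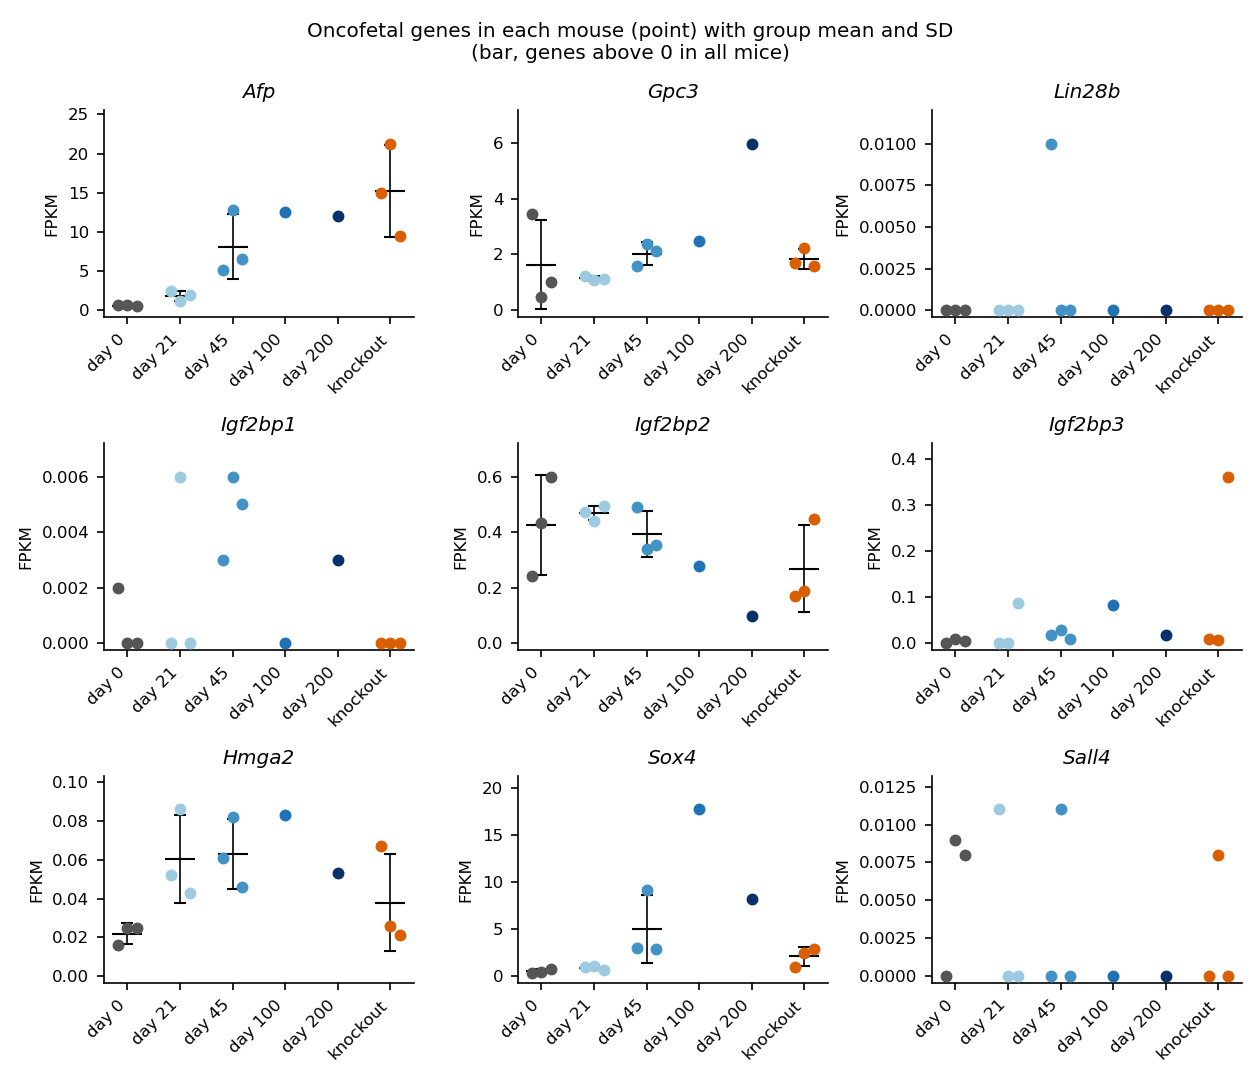
FPKM of the 9 oncofetal genes (y axis, linear, own scale in each panel) by group (x axis), with 1 point per mouse and the group mean and SD as a bar where the gene is above 0 in all 14 mice. Afp and Sox4 lie under 1 FPKM at day 0 and over 8 at days 100 and 200, Gpc3 has 1 high day 0 mouse, and Lin28b, Igf2bp1, Igf2bp3, Hmga2 and Sall4 stay under 0.4 FPKM in every mouse.

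Afp (chr5:90919739-90937933, mm9) rose at day 45, at days 100 and 200 and in the knockout. Its level was 0.632, 0.673 and 0.545 FPKM in the day 0 mice A, B and C. At day 21 it was 2.45, 1.22 and 1.91 FPKM, and at day 45 it was 5.10, 12.8 and 6.53 FPKM. All 8 floxed mice given Cre lay above all 3 uninjected mice, as 20.9% of the 17758 genes above 0 in any library did. The day 100 and day 200 livers had 12.5 and 12.1 FPKM, close to the highest day 45 mouse, and the knockout livers had 14.9, 21.3 and 9.50 FPKM. Each knockout mouse thus exceeded each day 0 mouse, and mouse B held the highest Afp value of the series.

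The group means of Afp were 0.617 ± 0.0654 FPKM (SD, n = 3) at day 0, 1.86 ± 0.615 (n = 3) at day 21, 8.15 ± 4.11 (n = 3) at day 45, 12.3 ± 0.286 (n = 2) at days 100 and 200, and 15.2 ± 5.89 (n = 3) in the knockout. Against day 0 the means were 3.02 times as high at day 21, 13.2 times at day 45, 19.9 times at days 100 and 200 and 24.7 times in the knockout. On the log2(FPKM + 1) scale the differences were smaller, because the pseudocount of 1 exceeds the day 0 level. The limma fit over all genes gave Afp a log2 difference of 2.41 ± 0.31 (SE) at day 45, with a Benjamini-Hochberg adjusted p of 0.000465. The difference was 3.04 ± 0.34 at days 100 and 200 (limma adjusted p = 0.000115) and 3.26 ± 0.31 in the knockout (limma adjusted p = 3.4e-05). At day 21 it was 0.80 ± 0.31 and did not pass (limma adjusted p = 0.143), although a fit of day 0 and day 21 alone gave an adjusted p of 0.0249 and a pseudocount of 0.1 gave 0.0282.

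Sox4 (chr13:29042598-29045551, mm9) rose at day 45 and at days 100 and 200. Its level was 0.340, 0.457 and 0.776 FPKM at day 0 and 0.993, 1.13 and 0.617 FPKM at day 21, and these groups overlapped. At day 45 it was 3.02, 9.21 and 2.90 FPKM, so that mouse B, which also had the most Afp of its group, stood above the other two. The day 100 liver held 17.7 FPKM, the highest Sox4 value of the series, and the day 200 liver 8.23 FPKM. In the knockout livers Sox4 was at 1.00, 2.43 and 2.93 FPKM, each above the highest day 0 mouse and each below the day 100 and day 200 livers.

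The Sox4 means were 0.524 ± 0.226 FPKM (SD, n = 3) at day 0, 0.914 ± 0.266 (n = 3) at day 21, 5.05 ± 3.61 (n = 3) at day 45, 13.0 ± 6.72 (n = 2) at days 100 and 200 and 2.12 ± 1.00 (n = 3) in the knockout. The log2 difference from day 0 was 1.84 ± 0.38 (SE) at day 45 (limma adjusted p = 0.00395) and 3.12 ± 0.42 at days 100 and 200 (limma adjusted p = 0.000282). Without day 45 mouse B the day 45 difference was 1.39 and still passed (limma adjusted p = 0.0156). The day 21 difference of 0.33 ± 0.38 did not pass (limma adjusted p = 0.697). The knockout difference of 0.99 ± 0.38 narrowly missed the threshold (limma adjusted p = 0.0606). It passed with a pseudocount of 0.1 (limma adjusted p = 0.02), with median centring (limma adjusted p = 0.0448) and without knockout mouse A (limma adjusted p = 0.0459), and it did not pass without knockout mouse C (limma adjusted p = 0.116).

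Gpc3 (chrX:49625603-49967151, mm9) had no clear day 0 level. Its values were 3.43, 0.474 and 1.02 FPKM in the uninjected mice A, B and C, a spread wider than that within any other group of 3 mice. They were 1.23, 1.09 and 1.11 FPKM at day 21 and 1.59, 2.38 and 2.12 FPKM at day 45. The day 100 liver had 2.49 FPKM, the day 200 liver 5.96 FPKM and the knockout livers 1.68, 2.24 and 1.58 FPKM, so only the day 200 mouse lay above day 0 mouse A.

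With all mice, a filter of 1 FPKM and the scaling as deposited, no comparison called Gpc3. The difference from day 0 was −0.14 ± 0.34 (SE) at day 21 (limma adjusted p = 0.88), 0.35 ± 0.34 at day 45 (limma adjusted p = 0.523), 1.06 ± 0.38 at days 100 and 200 (limma adjusted p = 0.0514) and 0.26 ± 0.34 in the knockout (limma adjusted p = 0.573). Without day 0 mouse A the day 0 mean fell from 1.64 ± 1.57 FPKM (SD, n = 3) to 0.745 ± 0.383 (n = 2). The difference at days 100 and 200 was then 1.52 ± 0.29 and passed (limma adjusted p = 0.0035), that at day 45 was 0.80 ± 0.26 (limma adjusted p = 0.0533), and that at day 21 turned to 0.31 ± 0.26 (limma adjusted p = 0.657). It also passed at days 100 and 200 without the day 100 mouse (limma adjusted p = 0.0383), which leaves the day 200 mouse alone and assumed to vary like the other groups, with a filter of 0.1 FPKM (limma adjusted p = 0.0436) and with libraries set to the same FPKM sum (limma adjusted p = 0.031).

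**Figure D2:**
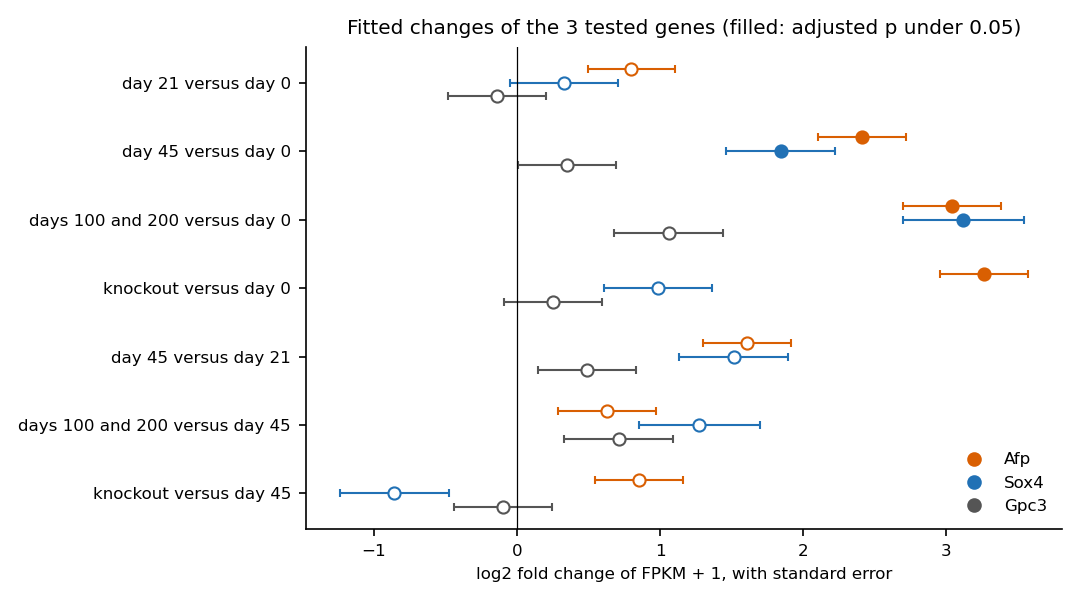
Log2 difference of FPKM + 1 (x axis, with standard error) of Afp, Sox4 and Gpc3 in the 7 comparisons (y axis), filled where the limma adjusted p is under 0.05. Afp is filled at day 45, at days 100 and 200 and in the knockout, Sox4 at day 45 and at days 100 and 200, and Gpc3 in none.

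Of the 3 tested members, 2 were called higher at day 45, where 26.7% of the 11354 tested genes were called and 23.7% were called higher. Likewise 2 were called higher at days 100 and 200, against 31.6% of all genes called and 28.4% called higher, and 1 in the knockout, against 33.8% called and 19.3% called higher. None was called at day 21, where 7.62% of genes were. Afp and Sox4, at 0.617 and 0.524 FPKM at day 0, passed the filter of 1 FPKM only through the groups where they were high, so these counts cover 3 of 9 members and are no evidence about the set. The same holds for listed genes below that were under 1 FPKM at day 0. These comparisons share their 3 day 0 mice. In whole liver, more cells of a type and more RNA per cell cannot be told apart for any of these genes.

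No member passed the direct tests between later groups. From day 21 to day 45, when 0.273% of all genes were called, Afp was 1.61 ± 0.31 (SE) higher (limma adjusted p = 0.0571) and Sox4 1.51 ± 0.38 higher (limma adjusted p = 0.104). Without day 45 mouse A the Afp step passed (limma adjusted p = 0.0193), in a fit that called 180 genes. From day 45 to days 100 and 200, with 0.22% of genes called, the differences were 0.63 ± 0.34 for Afp (limma adjusted p = 0.724), 0.71 ± 0.38 for Gpc3 (limma adjusted p = 0.723) and 1.28 ± 0.42 for Sox4 (limma adjusted p = 0.375), and that of Sox4 passed without day 45 mouse B (1.73 ± 0.35, limma adjusted p = 0.0436), in a fit that called 133 genes.

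Between the knockout and day 45, where 9.44% of genes were called, Afp and Sox4 had opposite signs. Afp was 0.85 ± 0.31 (SE) higher in the knockout (limma adjusted p = 0.076) and Sox4 0.86 ± 0.38 lower (limma adjusted p = 0.125). Without knockout mouse C the Afp difference was 1.13 ± 0.29 and passed (limma adjusted p = 0.00738), in a fit that called 5922 of 11354 genes, while that of Sox4 was −1.05 ± 0.41 (limma adjusted p = 0.0511). Per mouse, the ratio of Afp to Sox4 FPKM was 14.9, 8.76 and 3.24 in the knockout, 1.69, 1.39 and 2.25 at day 45, 0.705 at day 100, 1.47 at day 200 and 1.86, 1.47 and 0.702 at day 0. It was 2.47, 1.08 and 3.09 at day 21, so the 3 knockout livers had the 3 highest ratios, the lowest of them close to day 21 mouse C.

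**Figure D3:**
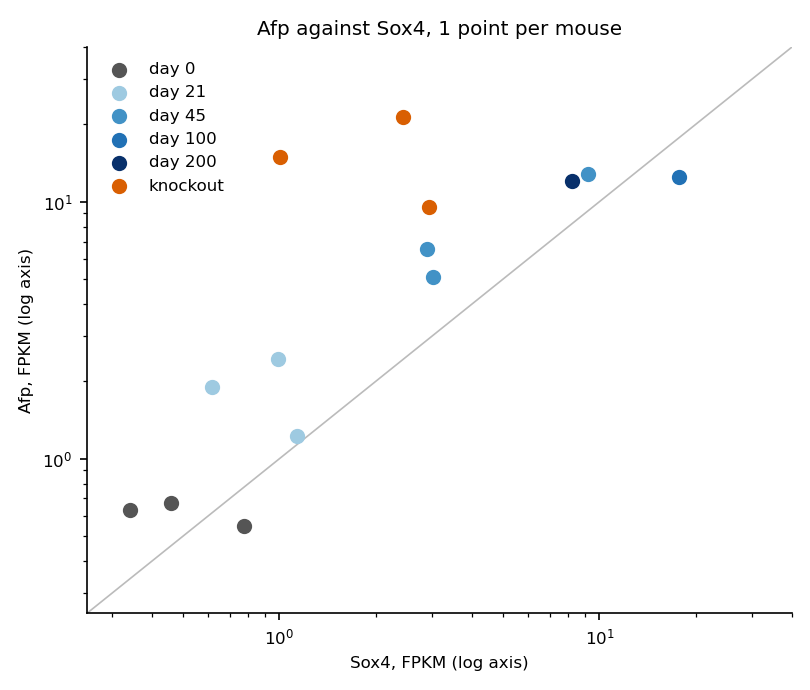
Afp (y axis, FPKM, log axis) against Sox4 (x axis, FPKM, log axis), 1 point per mouse, coloured by group, with the line of equal values. Floxed mice lie near the line from day 0 at the lower left to days 100 and 200 at the upper right, and the 3 knockout mice lie above it.

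The promoters of Afp and Sox4 are shown because both genes were called at day 45 and at days 100 and 200. Each line is the RefSeq window from 250 bases before to 50 after the annotated start (GRCm38.p6). Capitals mark the motifs found in a search of both strands. The TATA box letters TATAAA occur in 13.6% of 32851 promoter windows of the same length. The letters GTTAAT occur in 7.1%. The CCAAT box occurs in 37.4% and the GC box GGGCGG in 35.7%.
Afp, chr5:90490464-90490763, plus strand: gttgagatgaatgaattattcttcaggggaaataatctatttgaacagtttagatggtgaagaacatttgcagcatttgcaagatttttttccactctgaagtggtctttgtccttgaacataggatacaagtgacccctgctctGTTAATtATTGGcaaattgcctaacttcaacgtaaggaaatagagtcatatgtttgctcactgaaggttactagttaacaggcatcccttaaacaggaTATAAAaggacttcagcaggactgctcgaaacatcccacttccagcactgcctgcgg
Sox4, chr13:28953650-28953949, minus strand: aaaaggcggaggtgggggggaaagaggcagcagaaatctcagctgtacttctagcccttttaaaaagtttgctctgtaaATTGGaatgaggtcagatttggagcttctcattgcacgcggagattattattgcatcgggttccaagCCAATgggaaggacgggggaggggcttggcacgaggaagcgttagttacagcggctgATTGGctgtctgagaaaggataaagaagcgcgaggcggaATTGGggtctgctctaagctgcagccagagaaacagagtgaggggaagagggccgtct

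The Afp window held 1 TATAAA, 1 GTTAAT and 1 CCAAT, and the Sox4 window held CCAAT 4 times and none of the other motifs. The Gpc3 window (chrX:52613925-52614224, minus strand) held GGGCGG 4 times and CCAAT once. G and C made up 120 of 300 bases in the Afp window, 156 in that of Sox4 and 212 in that of Gpc3, and a median of 52.7% over all windows. Of the motifs searched, Afp and Sox4 shared only CCAAT.

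Lin28b (chr10:45096424-45190007, mm9) was listed at 0 in 13 of 14 livers. The exception was day 45 mouse A with 0.010 FPKM, which at that depth is about 2 fragments. Igf2bp1 (chr11:95818477-95867258) was above 0 in 6 livers and never over 0.006 FPKM, about 10 fragments in all 14 libraries together, and Sall4 (chr2:168573831-168592701) in 5 livers and never over 0.011 FPKM, again about 10 fragments. The 3 day 45 mice had 0.003, 0.006 and 0.005 FPKM of Igf2bp1 and the day 0 mice 0.002, 0 and 0, which is the limit of what an exact permutation test of 3 against 3 can reach (two-sided exact p = 0.1). At this depth no change of these 3 genes was detectable.

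Hmga2 (chr10:119798330-119913991, mm9) was low in every liver, and the mice given Cre lay above day 0. Its level was 0.016, 0.025 and 0.025 FPKM at day 0, 0.052, 0.086 and 0.043 FPKM at day 21 and 0.061, 0.082 and 0.046 FPKM at day 45. The day 100 and day 200 livers had 0.083 and 0.053 FPKM. All 8 floxed mice given Cre lay above all 3 day 0 mice, as did 11.7% of the 1835 genes with a mean of 0.01 to 0.1 FPKM. The knockout livers had 0.067, 0.026 and 0.021 FPKM and overlapped day 0. These values stand for about 2 to 14 fragments a library. The mean was 0.022 ± 0.0052 FPKM (SD, n = 3) at day 0, 0.0603 ± 0.0227 (n = 3) at day 21 and 0.063 ± 0.0181 (n = 3) at day 45, and the exact two-sided permutation p was 0.1 for each of both days, the smallest possible with 3 against 3. With no filter on low values the limma fit gave Hmga2 an adjusted p of 0.0759 at day 45 and 0.0624 at days 100 and 200.

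The other Igf2bp genes had separate patterns. Igf2bp2 (chr16:22059081-22163372, mm9) was the only one above 0 in all 14 livers. It was at 0.243, 0.433 and 0.601 FPKM at day 0, 0.473, 0.442 and 0.494 at day 21 and 0.491, 0.340 and 0.355 at day 45. It was at 0.280 FPKM at day 100, 0.097 at day 200, the lowest of the series, and 0.170, 0.189 and 0.449 in the knockout. The exact two-sided permutation p against day 0 was 0.7 at day 21, 0.9 at day 45, 0.4 at days 100 and 200 and 0.3 in the knockout, where the smallest possible is 0.1 with 3 against 3 and 0.2 with 2 against 3. With a filter of 0.1 FPKM and a pseudocount of 0.1 the limma fit gave Igf2bp2 a difference of −0.88 ± 0.40 (SE) at days 100 and 200, which did not pass (adjusted p = 0.0991).

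Igf2bp3 (chr6:49035216-49164953, mm9) was at most 0.010 FPKM in the day 0 mice and stood out in single livers. Knockout mouse C had 0.361 FPKM, about 44 fragments, while knockout mice A and B had 0.010 and 0.008 FPKM. Day 21 mouse C had 0.087 FPKM beside 2 livers listed at 0, and the day 100 liver had 0.083 FPKM beside 0.019 at day 200 and 0.019, 0.029 and 0.010 at day 45. The high value of the knockout lies in the library that stood apart from its group in general. The exact two-sided permutation p of Igf2bp3 against day 0 was 0.3 for the knockout, 0.2 for days 100 and 200, 0.2 for day 45 and 1.0 for day 21.

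**Figure D4:**
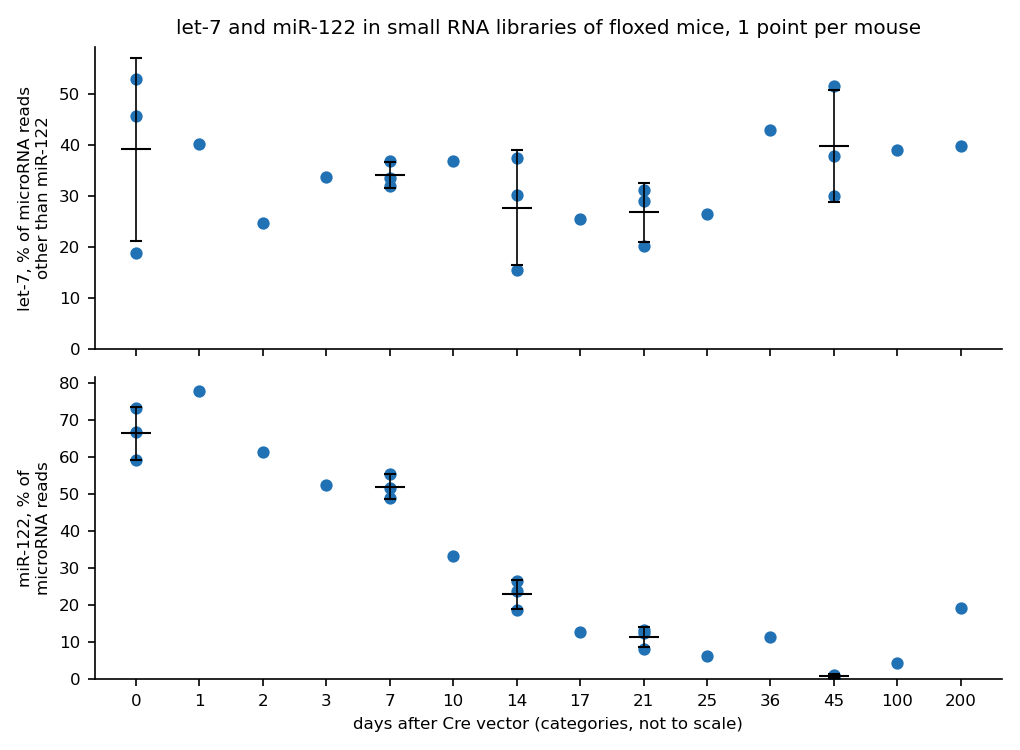
let-7 share of microRNA reads other than miR-122 (upper panel, %) and miR-122 share of microRNA reads (lower panel, %) in small RNA libraries of floxed mice by day after Cre, 1 point per mouse, with mean and SD where there are 3 mice. miR-122 falls from 59.2% or more at day 0 to 1.23% or less at day 45, while the let-7 shares of days 21 and 45 lie within or near the range of day 0.

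The level of mature let-7 was set beside Lin28b and the let-7 targets. The 10 listed let-7 precursors together made up 45.9%, 18.95% and 53.0% of reads other than miR-122 in the day 0 mice A, B and C. The share was 31.3%, 29.1% and 20.3% at day 21, 30.1%, 51.7% and 38.0% at day 45, 39.1% at day 100 and 39.96% at day 200. At days 21, 45, 100 and 200 each mouse lay between the lowest and the highest day 0 mouse. At the other days after Cre, which were not tested, the share was 24.7% to 42.9%, except for 15.5% in the day 14 mouse C, below every day 0 mouse. On the log2 scale day 21 differed from day 0 by −0.44 (exact two-sided permutation p = 0.5) and day 45 by 0.12 (exact two-sided permutation p = 0.9), against a pooled SD of 0.62 and 0.63, with 0.1 the smallest p possible. As a share of all microRNA reads, which the loss of miR-122 itself shifts, the differences were 0.98 and 1.70 (exact permutation p = 0.1 for each). Precursors of the same mature strand, such as let-7c-1 and let-7c-2 with 3.66% and 4.18% at day 0, may count the same reads.

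Untreated livers of the developmental set gave the range of let-7 around birth, without a test. The share was 23.7% in the embryonic day 14 mouse B, 6.15% and 9.89% at embryonic day 18, 8.67% and 20.5% at postnatal day 1, 23.6% and 30.4% at postnatal day 8, 24.9% at postnatal day 12, 33.1% at postnatal day 17, 41.6% at postnatal day 21 and 58.8% in the postnatal day 270 mouse B. The floxed livers at days 21 and 45 had shares above both embryonic day 18 livers. They were not all above the other early stages. Day 21 mouse C, at 20.3%, was below embryonic day 14 mouse B, postnatal day 1 mouse B and both postnatal day 8 livers. The values listed for embryonic day 14 mouse A, postnatal day 28 and postnatal day 270 mouse A fall well short of the RPM total and are left out here.

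Other genes of let-7 control and other let-7 targets were taken from lists. Of 6 tested genes for let-7 processing, 2 were called higher at day 45 and none lower, beside 23.7% of all tested genes called higher, with a median of 0.32 beside 0.20 for all genes. They were Zcchc11, a uridylyltransferase that works with LIN28 (1.06 ± 0.31, SE, limma adjusted p = 0.0226), and Drosha, the nuclease of primary microRNAs (0.96 ± 0.15, limma adjusted p = 0.00111). Drosha was also called higher at day 21 (0.89), at days 100 and 200 and in the knockout (0.84), whereas Dicer1 was at 0.02 at day 45. Lin28a and Trim71, like Lin28b, stayed under the filter, at no more than 0.054 and 0.019 FPKM.

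Of 22 let-7 target genes 12 were tested, and at day 45 4 were called higher, none lower and 8 did not pass, beside 23.7% of all tested genes called higher, with a median of 0.38 beside 0.20. They were the growth regulators Myc (2.25 ± 0.35, SE) and Ccnd2 (1.22 ± 0.22), the chromatin protein Hmga1 (0.80 ± 0.19) and the zinc finger factor Plagl2 (0.53 ± 0.15), with limma adjusted p of 0.00112, 0.00201, 0.00911 and 0.0207. At days 100 and 200 7 of 12 were called higher and none lower, beside 28.4% of all genes called higher, with a median of 0.66 beside 0.31. In the knockout 2 were called higher and 3 lower, beside 19.3% and 14.5% of all genes, among the latter Hmga1 (−1.32, limma adjusted p = 0.00068), with a median of −0.12 beside 0.02. Hmga1 differed in sign between day 45 and the knockout. Nr6a1, a predicted let-7 target that the paper reports as reduced after Cre, was among the genes that did not pass. At day 45 it was at 1.37, 1.56 and 1.56 FPKM, below the day 0 mice at 2.11, 2.86 and 2.88 FPKM. The difference was −0.53 ± 0.19 (SE, limma adjusted p = 0.0533), and −0.52 ± 0.21 at days 100 and 200 (limma adjusted p = 0.0751).

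**Figure D5:**
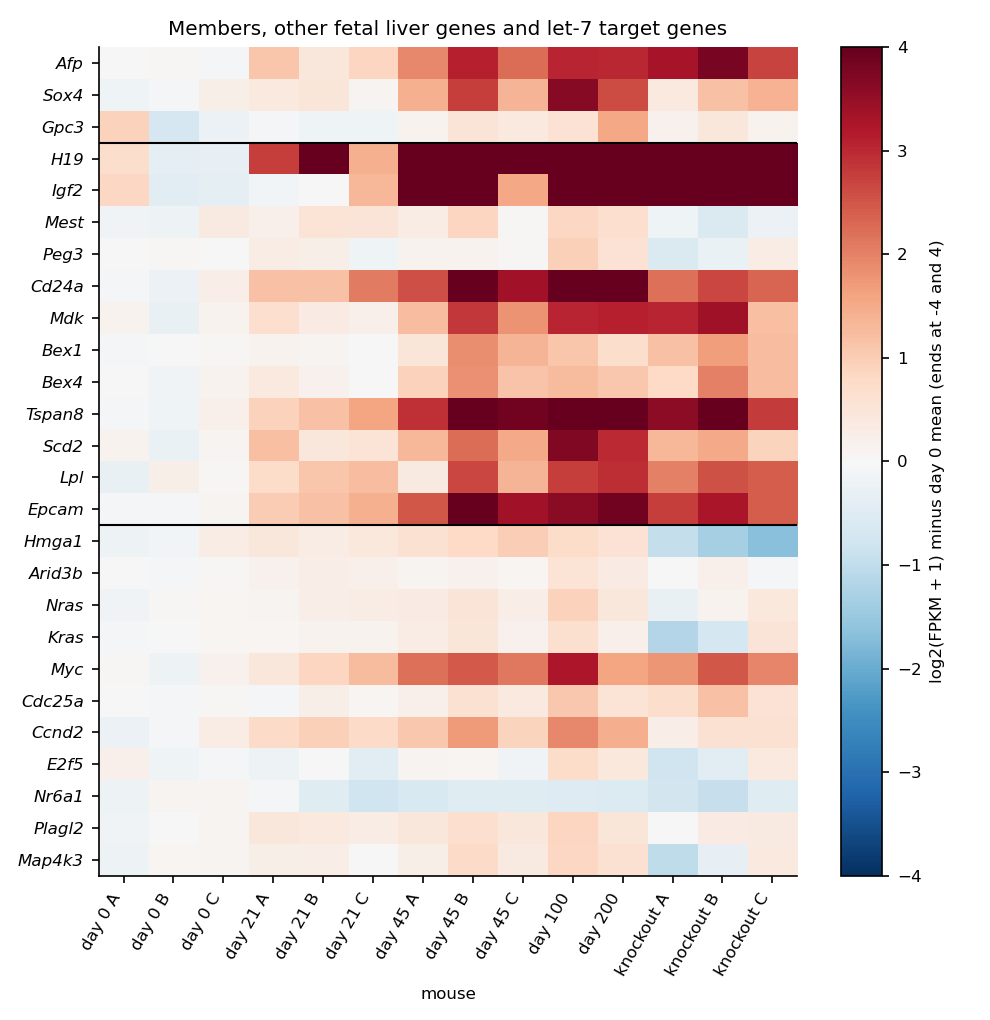
Log2(FPKM + 1) minus the day 0 mean (colour) of the 3 tested members, 12 other fetal liver genes and 11 let-7 target genes (rows) in the 14 mice (columns). Most fetal liver genes are raised from day 45 on and in the knockout, while the let-7 targets change by less, most of them higher at days 100 and 200 and several lower in the knockout. Of the 12 tested let-7 targets 11 are shown, since values of 1 are not reported here.

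Of 7 listed transcripts that the Igf2bp proteins are known to bind, most tested ones were called higher from day 45 on. At day 21, 2 of 6 were called higher, beside 6.2% of all genes. Myc is counted both here and among the let-7 targets. Of 6 tested, 5 were called higher and none lower at day 45, at days 100 and 200 and in the knockout, where 23.7%, 28.4% and 19.3% of all tested genes were called higher. At day 45 the largest were the imprinted RNA H19 (7.25 ± 0.86, SE, limma adjusted p = 0.000339) and the growth factor gene Igf2 (4.51 ± 1.12, limma adjusted p = 0.0107), followed by Ccnd1 (2.92 ± 0.51, limma adjusted p = 0.00177), which encodes cyclin D1, and Myc. Igf2 reached a log2 difference of 10.68 at days 100 and 200 and 9.83 in the knockout, the groups in which Igf2bp2 had its lowest means, 0.189 ± 0.129 FPKM (SD, n = 2) and 0.269 ± 0.156 (n = 3).

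Of the 12 tested genes of a list of other fetal liver genes, 10 were called higher at day 45, 12 at days 100 and 200, 10 in the knockout and 2 at day 21, with none lower in any of these, beside 23.7%, 28.4%, 19.3% and 6.2% of all genes called higher. The median was 1.82 at day 45, 3.21 at days 100 and 200 and 2.37 in the knockout. H19 and Igf2 are also counted above with the Igf2bp bound transcripts, and Epcam below with the cholangiocyte markers, so these counts are not independent. Beside H19 and Igf2 the largest changes at day 45 were those of the tetraspanin gene Tspan8 (3.85 ± 0.42, SE, limma adjusted p = 0.000179) and of Cd24a, which encodes a surface protein of progenitor cells (3.34 ± 0.34, limma adjusted p = 0.000128). Afp thus changed by less than H19, Igf2, Tspan8 and Cd24a and more than the list's median at day 45, Sox4 by about that median, and Gpc3 by less. For Lin28b, Igf2bp1, Igf2bp2 and Sall4 no rise was detectable in the same livers.

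Of 7 tested near relatives of Afp, Gpc3, Sox4 and Sall4, limma called none at day 21, beside 7.62% of all genes. At day 45 it called 1 (Sox9) beside 26.7%, and at days 100 and 200 it called 2 (Gpc1 and Sox9) beside 31.6%. In the knockout it called 2 (Gc and Sox9) beside 33.8%. Hmga1, a relative of Hmga2, is not among these 7 and is counted above with the let-7 targets. It was called at day 45, at days 100 and 200 and in the knockout. In the albumin family, Afp was the only one of 3 tested genes called at day 45. Afm and Gc, its neighbours, were at −0.24 and −0.07 at day 45, and Gc was called lower in the knockout (−0.59, limma adjusted p = 0.033). Among glypicans Gpc1 was called higher at days 100 and 200 (1.70, limma adjusted p = 0.0051), and Gpc4, the most abundant, was at −0.32 ± 0.16 (SE) at day 45 (limma adjusted p = 0.159). Of the Sox genes, Sox9, a factor of bile duct cells, was called higher at day 45 (1.15 ± 0.31, limma adjusted p = 0.0156). It was also called higher at days 100 and 200, and Sox4 was called with it in both comparisons. In the knockout Sox9 was called higher and Sox4 was not, and Sox18 was called in none of these comparisons. The other SoxC genes were under the filter, Sox11 at 0.008 FPKM or less and Sox12 at 0.601 to 1.78 FPKM. In the Sall family only Sall1 was tested and was not called in any comparison with day 0.

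Of 15 tested regulators of Afp and Gpc3, none was called by limma at day 21 or day 45, beside 7.62% and 26.7% of all genes. At day 45 their median was 0.08 beside 0.20 for all genes. The highest expressed, the hepatocyte factors Hnf4a and Cebpa, were at −0.16 ± 0.17 (SE, limma adjusted p = 0.553) and −0.22 ± 0.19 (limma adjusted p = 0.463). The repressors of Afp known from mouse genetics, Zhx2 and Zbtb20, were at 0.25 (limma adjusted p = 0.36) and 0.34 (limma adjusted p = 0.53). In the knockout Cebpb was called higher (2.48, limma adjusted p = 0.019) and Zhx1 lower (−0.96, limma adjusted p = 0.037), but both differences lay in mice A and B. Cebpb was at 100.8, 118 and 11.4 FPKM in mice A, B and C against 5.83 to 13.7 at day 0, and Zhx1 at 3.21, 3.59 and 11.8 FPKM against 9.81 to 12.4, so mouse C was within the day 0 range for each.

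Genes whose log2(FPKM + 1) followed a member over the 14 mice were listed as a description, since these points share groups and libraries. Those most like Afp were Atp6v0e2 (Pearson r = 0.995, Spearman rho = 0.982), Ccdc120 (r = 0.988), Kctd17 (r = 0.983), Ap1m2 (r = 0.981) and Gpr56 (r = 0.98), and 444 genes had r over 0.9 with it. Those most like Sox4 were Fam164a (r = 0.986), Dip2a (r = 0.981), Rabl2 (r = 0.981), Pkhd1 (r = 0.978), the gene of a bile duct cilium protein, and Arhgef10 (r = 0.975), and 244 genes had r over 0.9. For Gpc3 only Pigp passed 0.9 (r = 0.913), ahead of Spata24 (r = 0.878), Rpl22 (r = 0.877), Nbl1 (r = 0.868) and Cdkn2aipnl (r = 0.867). Afp and Sox4 correlated with r = 0.708 and rho = 0.688, Afp and Gpc3 with r = 0.516 and rho = 0.565, and Gpc3 and Sox4 with r = 0.572 and rho = 0.521. Pigp and Nbl1 shared with Gpc3 a high value in day 0 mouse A, at 16.8 FPKM of Pigp beside 7.82 and 10.9 and at 2.18 FPKM of Nbl1 beside 0.199 and 0.561.

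Markers of several other cell types were also higher after Cre and in the knockout, though not always in the order of Afp and Sox4. Their part in the changes of Afp, Sox4 and Gpc3 was not tested. At day 21, where no member was called, 6 of 9 lymphocyte and 3 of 9 macrophage markers were called higher, beside 6.2% of all genes. The same held for 2 of 9 endothelial, 2 of 11 stellate and fibroblast and 2 of 8 cholangiocyte markers, but for no proliferation gene. The summed lymphocyte level was 26.9 to 57.0 FPKM at day 21 and 23.2 to 31.6 at day 45. Of 8 tested cholangiocyte markers, 7 were called higher at day 45, 8 at days 100 and 200 and 7 in the knockout, beside 23.7%, 28.4% and 19.3% of all genes, among them Spp1 (3.84 ± 0.36, SE), Epcam (3.34 ± 0.34), Cldn7 (2.57 ± 0.46) and Krt19 (2.17 ± 0.57) at day 45. Their summed level was 62.1 to 82.7 FPKM at day 0, 157 to 223 at day 21, 437 to 1410 at day 45, 1990 to 3020 at days 100 and 200 and 602 to 888 in the knockout. Spp1 made up most of this sum, at 2866 FPKM in the day 100 liver. Single markers had another order of groups than the sum. Krt19 was at 23.7 and 25.4 FPKM in knockout mice A and B and 3.35 in C, against 5.78 to 17.5 FPKM at day 45, and Cldn7 at 14.2, 28.7 and 5.17 FPKM against 4.13 to 13.1. None of the 10 markers was at 0 in all libraries of a group.

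All 11 stellate and fibroblast markers were called higher at day 45, led by Col3a1 (3.12 ± 0.42, SE), with a summed level of 155 to 210 FPKM at day 0, 435 to 734 at day 45, 703 to 719 at days 100 and 200 and 232 to 353 in the knockout. The 9 tested macrophage markers were all called higher at day 45, as were 7 of 9 lymphocyte markers and 7 of 8 proliferation genes, beside 23.7% of all genes. At days 100 and 200 10 stellate and fibroblast, 5 macrophage, 8 lymphocyte and 8 proliferation genes were called higher, beside 28.4%, and the median macrophage difference was 1.00 there and 1.37 at day 45. In the knockout 7 stellate and fibroblast, 4 macrophage, 4 lymphocyte and 2 proliferation genes were called higher, beside 19.3%. Of 9 endothelial markers 3 were called higher at day 45, beside 23.7% of all genes, and 4 at days 100 and 200, beside 28.4%, with a summed level of 192 to 195 and 176 to 187 FPKM, above every day 0 liver. In the knockout none was called higher and 2 were called lower, beside 14.5% of all genes called lower, Lyve1 (−0.93, limma adjusted p = 0.0165) and Clec4g (−0.87, limma adjusted p = 0.00554), with a summed level of 78.7 to 89.9 FPKM against 92.6 to 159 at day 0. None of 4 tested erythroid markers was called in any comparison with day 0. The summed proliferation genes were at 2.35 to 10.6 FPKM at day 0, 17.1 to 34.5 at day 45, 22.1 to 63.5 at days 100 and 200 and 6.56 to 26.1 in the knockout. Of 11 tested hepatocyte markers, 1 was called higher (Cyp3a11, 1.17) and 1 lower (G6pc, −2.59) at day 45, beside 23.7% of all genes called higher and 2.99% called lower. At days 100 and 200 Apoa1 (−0.94, limma adjusted p = 0.0357) and G6pc (−2.21, limma adjusted p = 0.022) were called lower and none higher, beside 3.21% of all genes called lower and 28.4% called higher. Serpina1a, listed at 0 in 10 floxed livers, was at 987 FPKM in the day 100 liver and at 1897, 2036 and 1286 FPKM in the knockout. No fold is given against a group listed at 0, and Serpina1a was left out of the sum. The other hepatocyte markers summed to 29800 to 33000 FPKM at day 0, 28700 to 30400 at day 21, 24800 to 31200 at day 45, 17500 to 26700 at days 100 and 200, below every day 0 liver, and 29000 to 34200 in the knockout.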

How the data were processed

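For poly-A RNA, TopHat alignments of paired reads to mm9 were turned by the authors into the deposited FPKM with Cufflinks 2.2.1 and quartile scaling, leaving out ribosomal, snoRNA and mitochondrial sequences. They trimmed small RNA reads, aligned them to mouse microRNAs with Bowtie 0.12.7 and deposited RPM with 1 added, which was removed here. FPKM hold no counts, so no count model was fitted.

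The rows of 224 symbols with several rows were summed. limma 3.58.1 in R 4.3.3 (lmFit, contrasts, eBayes with trend) was run on log2(FPKM + 1) of the 11354 symbols that averaged 1 FPKM or more. A single model held all 5 groups, with Benjamini-Hochberg adjustment over all tested genes within a comparison and a two-sided threshold of 0.05. Members under the filter and let-7 shares were compared with exact permutation tests in scipy 1.17.1. Python 3.11.15, pandas 2.3.3, numpy 2.4.6 and matplotlib 3.10.9 were used. Each library is 1 mouse, and grouping follows the labels. Of the 19 columns of the FPKM table, 3 hold no values per sample and were not used. Depth was estimated from the spacing of low FPKM of genes with 1 annotated transcript and is approximate. In simulated data of the day 45 comparison with 11354 genes, the fit called 52% of changes of log2 1 and 88% of log2 2, with 8 false calls. The simulation changed only 100 genes of each size, drew independent noise for each gene and added no shift of all genes. Many more genes were called in the real data, so these rates need not hold there.

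The members and gene lists were chosen with earlier results of these data known. From each list, up to 4 called genes with the largest change at day 45 were named, or the 2 highest expressed where none was called. Other list genes named, such as Dicer1, Zhx2, Zbtb20, Cebpb and Sox11, were picked with values in view. Values of some list genes are not reported here. The alternatives tried were another pseudocount, filter, scaling, set of groups, handling of duplicate symbols and variance trend, a replicate block, and leaving out each mouse.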

Additional observations from a re-analysis of the deposited data

How the results depend on the processing

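The calls of Afp and Sox4 at day 45 and at days 100 and 200, and of Afp in the knockout, passed in all 16, 14 and 16 alternatives run for each. Afp ranged from 2.07 to 3.42 at day 45 and Sox4 from 1.39 to 2.89. Of the other values of the 3 tested members, 17 gained a call. Leaving out 1 mouse gave Gpc3 −0.48 to 0.31 at day 21, where it changed sign without day 0 mouse A, and −0.0848 to 0.71 in the knockout, where it changed sign without day 0 mouse B. It also changed sign with median centring between the knockout and day 45 (0.12). No member lost a call. The cause of these shifts was not tested.

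Members called went from 0 to 1 at day 21 and between days 21 and 45 with a pseudocount of 0.1, alone or with a filter of 0.1 FPKM, and at day 21 also with only 2 groups in the fit. In the knockout they went from 1 to 2 with either pseudocount setting and with median centring. At days 100 and 200 they went from 2 to 3 in the 5 alternatives that called Gpc3, among them leaving out day 0 mouse A or the day 100 mouse. Leaving out 1 mouse gave 2 to 3 at days 100 and 200, 1 to 2 in the knockout, and 0 to 1 between days 21 and 45, between day 45 and days 100 and 200, and between day 45 and the knockout.

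Genes called over the whole table moved more. At day 21 (865) they were 1384 with both low settings, 1774 with 2 groups, 470 with the replicate block and 243 to 643 leaving 1 mouse out. At day 45 (3027) leaving 1 mouse out gave 1781 to 2741. At days 100 and 200 (3592) they were 5816 with no filter and 1626 to 3053 leaving 1 out. In the knockout (3833) they were 1109 with 2 groups and 1630 to 7088 leaving 1 out, the highest without mouse C. Between days 21 and 45 (31) they were 58 with pseudocount 0.1, 17 with filter 0.1, 10 with no filter, 145 with both low settings, 14 with centring, 15 with equal FPKM sums, 1 with the block, 3 with 2 groups and 0 to 180 leaving 1 out. Between day 45 and days 100 and 200 (25) they were 2, 126, 228 and 15 with these 4 settings, 0 with 2 groups and 1 to 133 leaving 1 out, beside 890 genes with an unadjusted p under 0.05. Between day 45 and the knockout (1072) they were 1634 with both low settings, 405 with centring, 447 with the block, 63 with 2 groups and 231 to 5922 leaving 1 out. Centring moved the share of calls that were higher from 88.8% to 67.4% at day 45, from 89.8% to 64.3% at days 100 and 200 and from 12.8% to 45.9% between the knockout and day 45.

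Whether the replicate letters pair the mice was not tested against pairs with different letters. Of 18 same-letter pairs, 8 had deviations from the group means that correlated over 0.1 (range −0.447 to 0.501). Between days 21 and 45 the correlations were 0.272, 0.236 and 0.501 for letters A, B and C. Between days 0 and 45 they were 0.195, −0.327 and −0.447. With the letter as a block, Afp at day 45 kept its call (2.41, limma adjusted p = 0.0026), and no call of a member changed in the comparisons without days 100 and 200, whose mice have no letter and hence no blocked value. The let-7 differences in the block were −0.44 and 0.12 (exact permutation p = 0.75 and 1.0). With all microRNA reads as the denominator, which includes miR-122, they were 0.98 and 1.70. Leaving out 1 mouse gave −0.90 to −0.16 at day 21 and −0.34 to 0.40 at day 45, with a change of sign without day 45 mouse B (−0.09) and without day 0 mouse B (−0.34).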
